A study of Zea mays with 9 samples.

Results

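Flavonoid and anthocyanin pigments of maize are built by a chain of enzymes whose genes were first known from kernel colour mutants. The genes described here are c2, whp1, chi1, fht1, pr1, a1, a2, bz1 and bz2, chosen by their identifiers and given in pathway order. These are 9 of the 39656 gene identifiers in the deposited table, and all 9 were expressed well enough to be tested among 22544 genes. The RNA came from 14-day seedlings kept under a day of 15 h and a night of 9 h, in 3 genotypes with 3 libraries each. The genotypes were P1-ww714, labelled without stating whether the allele is homozygous, P1-ww714/B73, called the heterozygote below, and the inbred line B73, which supplies the other allele of the heterozygote. No group received a treatment. Whether replicates came from different plants is not said in the labels, so the spread behind each p-value may be partly technical.

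The first step of the pathway is made by chalcone synthase, encoded by c2 and its duplicate whp1. Chalcone isomerase (chi1), flavanone 3-hydroxylase (fht1) and flavonoid 3'-hydroxylase (pr1) then shape the flavonoid core. Dihydroflavonol 4-reductase (a1) and anthocyanidin synthase (a2) lead to the coloured anthocyanidins, which are glucosylated by the bz1 enzyme and moved to the vacuole with the help of the glutathione transferase bz2. The MYB regulator P1 is known to activate c2, chi1 and a1 for red phlobaphene pigments in floral tissues such as the pericarp, while the MYB proteins C1 or PL1 act with the bHLH proteins R1 or B1 on the anthocyanin genes. P1-ww714 is an allele of p1, and background knowledge of the study, not stated in the labels, is that it carries a duplication of a chromosome 1 segment that ends at p1. The comparison of genotypes therefore asks whether pigment enzyme transcripts differ in seedlings with an altered p1 region.

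Library totals ran from 9486044 to 16189684 counts, and the 9 enzyme genes took 0.0572% to 0.105% of them. Markers of green leaf were abundant in every library. The C4 photosynthesis genes pdk1 and pep1 averaged 18386 and 11855 CPM in P1-ww714, 20382 and 12243 CPM in the heterozygote, and 18420 and 10137 CPM in B73 (counts scaled to library size by TMM, a trimmed mean of gene ratios, and given per 1e+06), and 3 bundle sheath genes summed to 6007 CPM or more. Mesophyll symbols matched 7 identifiers with case ignored, so that 2 named PDK1 and 1 named Pep1 came in beside pdk1 and pep1, and whether these mark mesophyll is not known. Of these 7, 1 passed the edgeR test in P1-ww714 against B73, beside 0.776% of all tested genes. It was PPCK1 (GRMZM2G178074), a kinase of phosphoenolpyruvate carboxylase, which averaged 24.9 ± 7.82 CPM in P1-ww714 and 8.53 ± 2.27 CPM in B73 (SD, n = 3 each, 2.94-fold, edgeR adjusted p = 0.039). Of the root markers, rtcs1 had 0 counts in every library and rth3 lay between 10.2 and 16.6 CPM. The seed regulator vp1 also had 0 counts in every library. Heterozygote replicate 1 stood apart, with a mean correlation of 0.965 with the others against 0.974 or more for the rest. P1-ww714 replicate 3 was singled out only because the enzyme genes themselves were high in it, and its mean correlation was 0.975. B73 replicate 3, the lowest library for 6 of the enzyme genes, had 0.974. Leaving out P1-ww714 replicate 3 lowers the P1-ww714 values by the way that library was picked. Fold changes against B73 are therefore given with their range when 1 library at a time was left out.

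No enzyme gene changed between genotypes past the threshold. In P1-ww714 against B73, 0 of 9 genes passed the edgeR quasi-likelihood test at a Benjamini-Hochberg adjusted p of 0.05 (lowest adjusted p = 0.608), where 0.776% of all tested genes passed. DESeq2 also called 0 of 9, beside 311 of the 22544 tested genes. An unadjusted edgeR p under 0.05 was found for 1 of 9, pr1, and for 7.13% of all tested genes. All 9 fitted log2 fold changes lay above 0, with a median of 0.34, beside a median of -0.0022 over all tested genes, 49.5% of which lay above 0. No enzyme gene was without overlap between the libraries of these groups, as 13.3% of all tested genes were. Without P1-ww714 replicate 3 the median of the 9 genes was 0.11, and the values of whp1 (-0.036) and a1 (-0.081) lay below 0. Without B73 replicate 1 the median was 0.49. In the heterozygote against B73, 0 of 9 genes passed with edgeR or with DESeq2. Of all tested genes, 0.111% passed there with edgeR and 73 of 22544 with DESeq2. An unadjusted edgeR p under 0.05 or no overlap was found for 0 of 9, beside 2.59% and 6.84% of all tested genes. There 6 values lay above 0 and 3 below, where 49.6% of all tested genes lay above 0, with a median of 0.13, and the median was -0.042 without heterozygote replicate 1, -0.10 without B73 replicate 3 and 0.21 without B73 replicate 1. In P1-ww714 against the heterozygote, 0 of 9 genes passed with either tool. Of all tested genes, 0% passed there with edgeR and 27 of 22544 with DESeq2. The gene a2, 1 of 9, had an unadjusted edgeR p under 0.05, as 3.02% of all tested genes did. All 9 values lay above 0, as did 52% of all tested genes, with a median of 0.17, which was -0.052 when replicate 3 of P1-ww714 was left out and 0.37 when its replicate 1 was. These 3 comparisons share libraries in pairs, so their values are not independent of each other. Within a comparison the 9 genes varied together across libraries, as described below, so their 9 signs are not separate results.

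**Figure D1:**
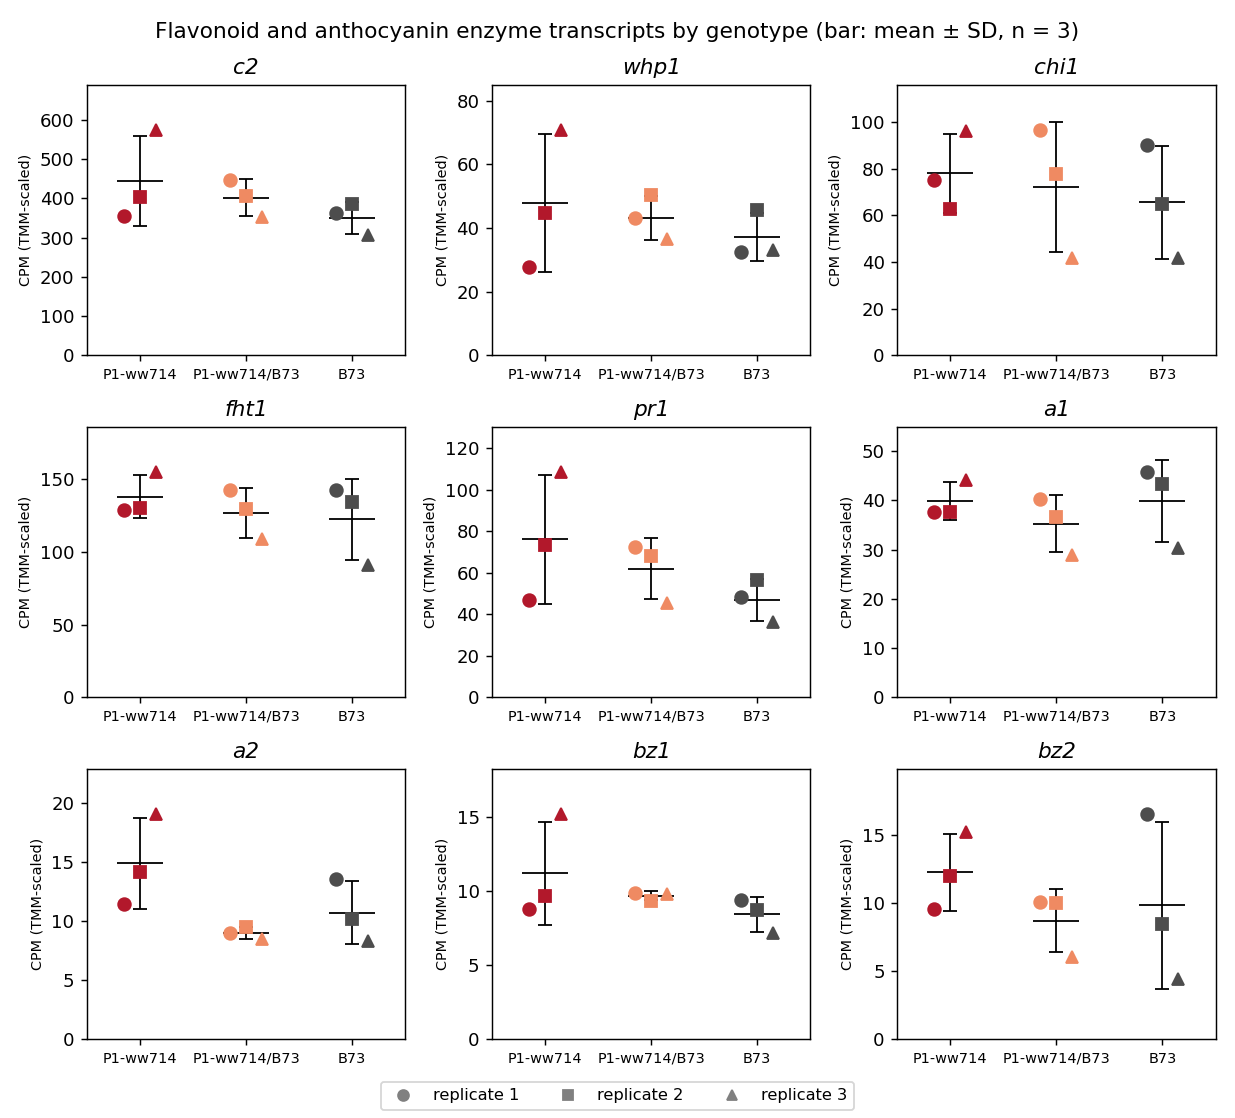
Normalised level of each enzyme gene (CPM, linear axes from 0) in the 3 libraries of each genotype, with replicates 1, 2 and 3 as circles, squares and triangles and the mean ± SD (n = 3) as bars. The triangle of P1-ww714 is the highest of the 9 libraries for 6 genes, and the triangle of B73 is the lowest for 6 genes.

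The chalcone synthase gene c2 (GRMZM2G422750, chromosome 4) had 356, 403 and 574 CPM in P1-ww714, 447, 405 and 353 CPM in the heterozygote and 361, 385 and 306 CPM in B73. The highest value came from P1-ww714 replicate 3, while replicate 1 of P1-ww714 lay inside the range of B73 and replicate 2 just above it. Levels averaged 444 ± 115 CPM in P1-ww714, 402 ± 47.1 CPM in the heterozygote and 351 ± 40.7 CPM in B73 (SD, n = 3 each). The log2 fold change of P1-ww714 against B73 was 0.34 with a standard error of 0.18 and a 95% interval of -0.06 to 0.74, and it was 0.11 without P1-ww714 replicate 3 and 0.48 without its replicate 1. That of the heterozygote against B73 was 0.20 with an interval of -0.20 to 0.59, and ran from 0.11 without B73 replicate 3 to 0.28 without heterozygote replicate 3. Both intervals end below 1, the value of a doubling.

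The duplicate whp1 (GRMZM2G151227, chromosome 2), named for the white pollen of mutants, had 27.9, 44.8 and 70.8 CPM in P1-ww714. It had 43.0, 50.2 and 36.4 CPM in the heterozygote and 32.4, 45.8 and 33.1 CPM in B73. P1-ww714 therefore held both the lowest and the highest of the 9 libraries. In P1-ww714 against B73 its log2 fold change was 0.37 (95% interval -0.26 to 0.99) and that of the heterozygote against B73 was 0.22 (-0.40 to 0.85). With 1 library left out, these ran from -0.036 (without P1-ww714 replicate 3) to 0.64 (without P1-ww714 replicate 1), and from 0.099 (without heterozygote replicate 2) to 0.40 (without B73 replicate 2). Of the counts assigned to both chalcone synthase genes, whp1 took 7.27% in P1-ww714 replicate 1 (exact 95% binomial interval 6.63% to 7.95%), and 10.01% and 10.98% in replicates 2 and 3 (9.21% to 10.85% and 10.37% to 11.62%). Its share was 8.78%, 11.03% and 9.36% in the heterozygote and 8.23%, 10.6% and 9.76% in B73, with lower bounds of 7.49% or more and upper bounds of 11.8% or less. The intervals cover counting error only, and replicates of 1 genotype differed by more than that error. Mean shares were 9.42% ± 1.92 in P1-ww714 and 9.54% ± 1.21 in B73 (SD, n = 3 each), which differed by -0.12 percentage points (two-sided exact permutation p = 1, smallest possible 0.1). This difference had the opposite sign without P1-ww714 replicate 1 (0.96) and without B73 replicate 2 (0.42). The split is uncertain, because no source used here states how reads shared by both genes were counted.

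Chalcone isomerase closes the central ring of the molecule. Its gene chi1 (GRMZM2G155329, chromosome 1) had 75.1, 62.8 and 96.1 CPM in P1-ww714, 96.6, 77.9 and 41.7 CPM in the heterozygote and 90.2, 65.0 and 41.8 CPM in B73. The genotypes overlapped widely, and the lowest levels, near 42 CPM, came from replicate 3 of the heterozygote and of B73. Its log2 fold change was 0.25 in P1-ww714 against B73 (95% interval -0.45 to 0.94), and it ran from 0.0095 without B73 replicate 3 to 0.54 without B73 replicate 1. The heterozygote stood at 0.13 against B73 (-0.57 to 0.83), at -0.10 without B73 replicate 3 and at -0.13 without heterozygote replicate 1, while leaving out B73 replicate 1 gave 0.43.

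The hydroxylase gene fht1 (GRMZM2G062396, chromosome 2) had 129, 130 and 155 CPM in P1-ww714, 143, 129 and 109 CPM in the heterozygote and 143, 134 and 90.8 CPM in B73. Of the P1-ww714 libraries, replicate 3 lay above all B73 libraries and the others lay among them. Its enzyme turns flavanones into dihydroflavonols, the last step shared by flavonols and anthocyanins. For P1-ww714 against B73 the log2 fold change was 0.17 (95% interval -0.21 to 0.55), and in the heterozygote against B73 it was 0.05 (-0.33 to 0.43), among the narrowest intervals of the 9 genes. Leaving out B73 replicate 3 gave -0.0021 and -0.12, and leaving out B73 replicate 1 gave 0.29 and 0.17.

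The largest fitted difference from B73 was that of pr1 (GRMZM2G025832, chromosome 5), whose hydroxylase adds a hydroxyl group to the side ring and so sets purple against red anthocyanin. Its level was 46.7, 73.3 and 109 CPM in P1-ww714, 72.4, 68.3 and 45.3 CPM in the heterozygote and 48.5, 56.4 and 36.1 CPM in B73. In P1-ww714, replicates 2 and 3 lay above all B73 libraries and replicate 1 lay among them, so the genotypes overlapped. Levels averaged 76.2 ± 31.1 CPM in P1-ww714, 62.0 ± 14.6 CPM in the heterozygote and 47.0 ± 10.2 CPM in B73 (SD, n = 3 each). The log2 fold change of P1-ww714 against B73 was 0.70 with a standard error of 0.29 (1.62-fold, 95% interval 0.07 to 1.32 on the log2 scale), and the edgeR adjusted p of 0.608 did not pass. Leaving out replicate 3 of P1-ww714 gave 0.35, and leaving out its replicate 1 gave 0.95, where the edgeR adjusted p was 0.217, the lowest of any enzyme gene when a library was left out. In the heterozygote against B73 the value was 0.40 (-0.23 to 1.03), and it ran from 0.25 without B73 replicate 3 to 0.58 without heterozygote replicate 3.

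The reductase gene a1 (GRMZM2G026930, chromosome 3), a known target of both P1 and C1, was the most even of the 9. It had 37.6, 37.7 and 44.2 CPM in P1-ww714, 40.2, 36.6 and 28.9 CPM in the heterozygote and 45.7, 43.3 and 30.3 CPM in B73. All P1-ww714 libraries lay inside the B73 range. The log2 fold change of P1-ww714 against B73 was 0.00059 with a 95% interval of -0.37 to 0.37. A change of a1 larger than 1.29-fold lies outside that interval. Against B73 the heterozygote had a log2 fold change of -0.17 (-0.55 to 0.20). Without B73 replicate 3 the values were -0.16 in P1-ww714 and -0.33 in the heterozygote, while the highest were 0.11 in P1-ww714 without B73 replicate 1 and -0.054 in the heterozygote without its replicate 3.

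For a2 (GRMZM2G345717, chromosome 5), the anthocyanidin synthase gene, P1-ww714 and the heterozygote did not overlap. The 3 libraries of P1-ww714 had 11.5, 14.2 and 19.1 CPM, those of the heterozygote 9.02, 9.48 and 8.51 CPM, and those of B73 13.6, 10.2 and 8.37 CPM. B73 spanned the gap between both other genotypes and overlapped each of them. In P1-ww714 against the heterozygote the log2 fold change was 0.73 with a standard error of 0.22 (1.65-fold, 95% interval 0.24 to 1.21, edgeR unadjusted p = 0.00715, adjusted p = 1), and DESeq2 gave an adjusted p of 0.639. It was the 1 gene of 9 without overlap in that comparison, where 6.78% of all tested genes had none. Without P1-ww714 replicate 3 the value was 0.50, and without its replicate 1 it was 0.89. Against B73, the log2 fold change was 0.47 in P1-ww714 (-0.01 to 0.95) and -0.26 in the heterozygote (-0.75 to 0.24). Without B73 replicate 1 these were 0.68 and -0.044, while the lowest were 0.25 in P1-ww714 without its replicate 3 and -0.40 in the heterozygote without B73 replicate 3.

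The glucosyltransferase gene bz1 (GRMZM2G165390, chromosome 9) had 8.80, 9.66 and 15.2 CPM in P1-ww714, 9.92, 9.35 and 9.86 CPM in the heterozygote and 9.43, 8.74 and 7.16 CPM in B73. Apart from P1-ww714 replicate 3, the 8 other libraries lay between 7.16 and 9.92 CPM. Between P1-ww714 and B73 its log2 fold change was 0.41 (95% interval -0.06 to 0.88), 0.12 without that library and 0.56 without P1-ww714 replicate 1. The heterozygote had 0.20 against B73 (-0.28 to 0.67), with 0.099 without B73 replicate 3 and 0.28 without B73 replicate 1.

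The vacuolar transport gene bz2 (GRMZM2G016241, chromosome 1) varied most within a genotype. Its level was 9.57, 12.0 and 15.2 CPM in P1-ww714, 10.1, 9.99 and 6.02 CPM in the heterozygote and 16.5, 8.49 and 4.44 CPM in B73. B73 held the highest and the lowest library of all 9, and these values rest on 44 to 231 counts per library. Set against B73, P1-ww714 had a log2 fold change of 0.30 for bz2 (95% interval -0.54 to 1.15), and it was 0.90 without B73 replicate 1 and -0.032 without B73 replicate 3. The heterozygote gave -0.18 against B73 (-1.04 to 0.69), 0.43 without B73 replicate 1 and -0.51 without B73 replicate 3. A doubling of bz2 in P1-ww714 lies inside its interval.

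**Figure D2:**
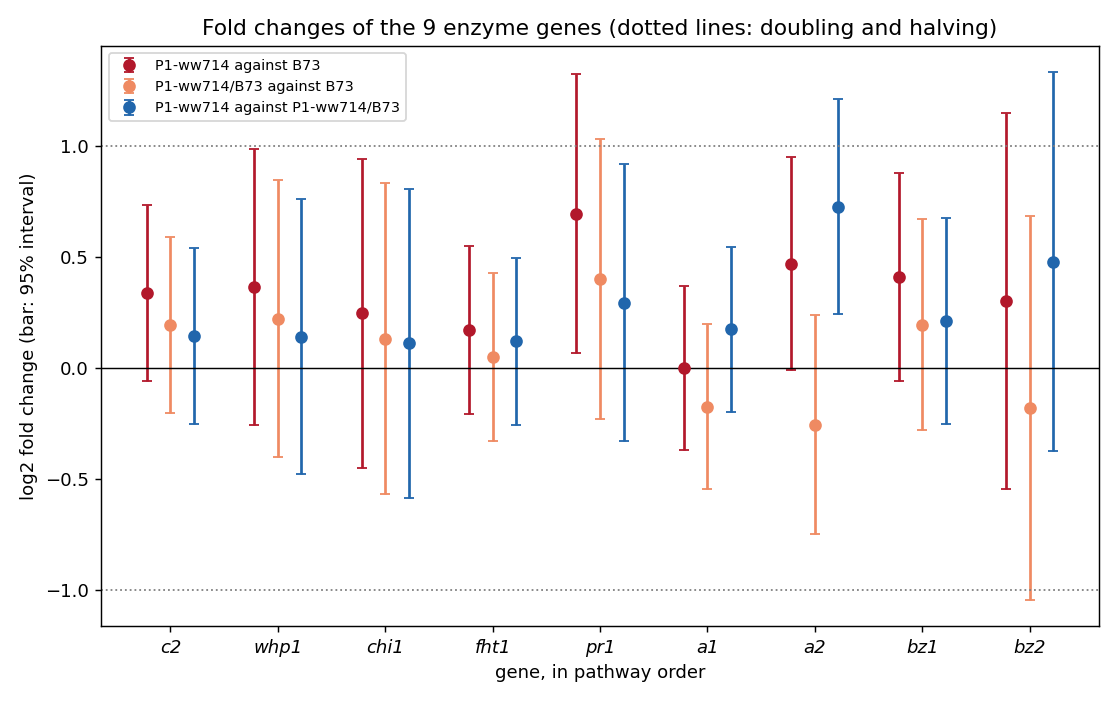
Log2 fold change and 95% interval of each enzyme gene in P1-ww714 against B73, the heterozygote against B73 and P1-ww714 against the heterozygote, with dotted lines at a doubling and a halving. Intervals hold 0 for 8, 9 and 8 of the 9 genes in these comparisons, with pr1 (0.07 to 1.32) and a2 (0.24 to 1.21) as the exceptions.

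How large a change these libraries would leave inside the intervals differed by gene. In P1-ww714 against B73, the interval ended below a doubling for 7 of 9 genes, and for pr1 and bz2 it did not. In the heterozygote against B73 it ended below a doubling for 8 of 9 genes, with pr1 as the exception, and for bz2 its lower end (-1.04) lay past a halving. The pooled SD of log2 CPM between replicates was 0.25 for c2, fht1 and a1, 0.27 for bz1 and 0.30 for a2. It was 0.44 for whp1, 0.45 for pr1, 0.52 for chi1 and 0.62 for bz2. The median over the 19916 tested genes with an average log2 CPM of at least 1 was 0.19. Of those genes, 96.7% had a smaller SD than bz2, 94.2% than chi1, 91.2% than pr1 and 90.6% than whp1. For a2, bz1, c2, fht1 and a1 this share ran from 74.9% (a2) down to 65.0% (a1). Between the highest and the lowest of the 9 libraries, bz2 differed 3.72-fold, pr1 3.01-fold and a1 1.58-fold.

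The enzyme genes varied together across the 9 libraries, also with each genotype's mean subtracted. For pairs of other genes r was not computed, so nothing here shows that this is particular to the pathway. Over the 36 pairs of enzyme genes, Pearson's r of log2 CPM across the 9 libraries ran from 0.37 to 0.97 with a median of 0.69, given here as a description without a test. With each genotype's mean subtracted, r was above 0 for 36 of 36 pairs and ran from 0.34 to 0.99 with a median of 0.75. Without P1-ww714 replicate 3 the median was 0.62 and the lowest, for whp1 and a2, was -0.11. The closest pair was c2 with pr1 (r = 0.97, Spearman's rho = 0.95), and r was 0.96 without that library. The genes chi1, fht1, a1 and bz2 followed each other at r between 0.86 and 0.92. Links between whp1 and these genes were looser, with r = 0.39 for chi1, 0.51 for fht1, 0.37 for a1 and 0.39 for bz2. This grouping was seen in the values and was not tested.

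**Figure D3:**
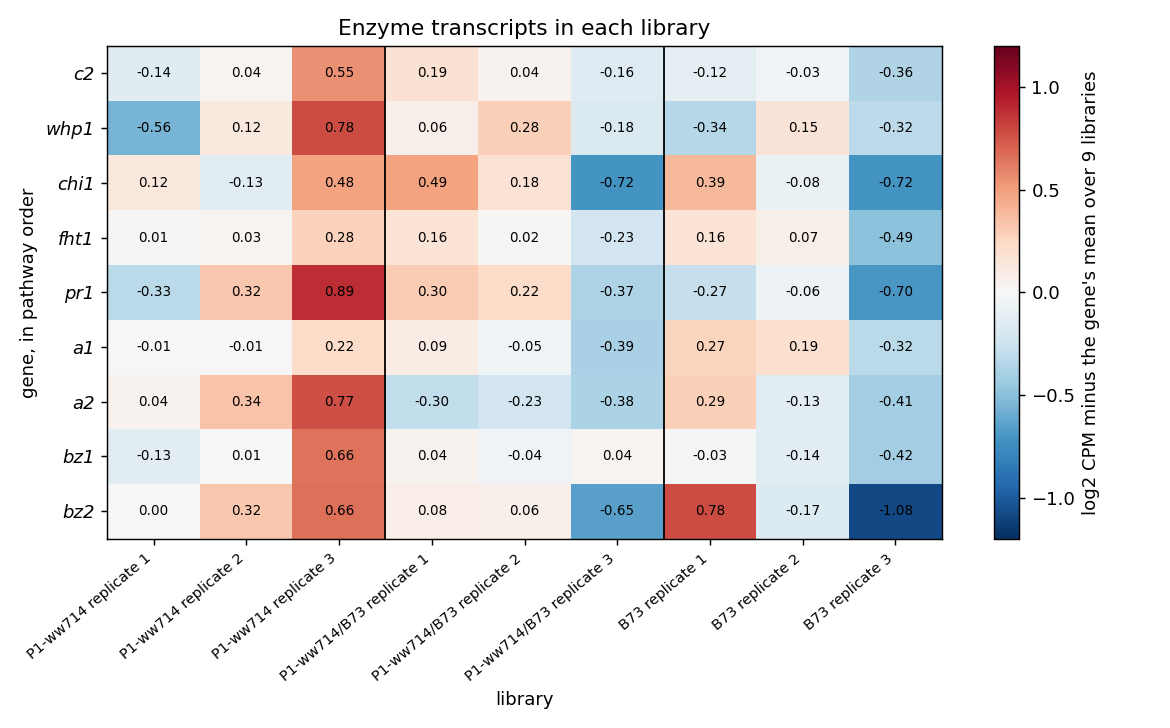
Log2 CPM of each enzyme gene in each library minus that gene's mean over the 9 libraries, with red above and blue below the mean and lines between genotypes. The column of P1-ww714 replicate 3 is above the mean for all 9 genes, from 0.22 for a1 to 0.89 for pr1, and that of B73 replicate 3 is below it for all 9, from -0.32 for whp1 and a1 to -1.08 for bz2.

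Summed over the 9 genes, the level was 701, 787 and 1098 CPM in P1-ww714, 871, 796 and 638 CPM in the heterozygote and 761, 757 and 558 CPM in B73. The gene c2 weighed most in these sums, with 574 CPM in P1-ww714 replicate 3 and 306 CPM in B73 replicate 3. The lowest sums belonged to replicate 3 of the heterozygote and of B73, the libraries with the fewest counts, 9486044 and 9668982, and together they held the lowest value of 8 of the 9 genes. P1-ww714 replicate 3, with 15963344 counts, had the highest sum, and the part of library size in these differences was not tested.

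Genes of other functions were also high or low in these libraries. Heat shock genes, 15 by symbol, had a median of 0.90 for log2 CPM minus the mean log2 CPM of the B73 libraries in P1-ww714 replicate 3, where the enzyme genes stood at 0.81. The other 2 P1-ww714 libraries gave 0.24 and 0.18 for heat shock genes and 0.07 and 0.21 for enzyme genes. Set against the log2 of the mean CPM in B73, the enzyme genes stood at 0.71 in P1-ww714 replicate 3 and at 0.019 and 0.20 in replicates 1 and 2. The summed level of the 15 heat shock genes ran from 2205 to 2800 CPM in P1-ww714, from 1673 to 2414 CPM in the heterozygote and from 1924 to 2115 CPM in B73. The leaf nitrate reductase gene NNR1 had 494, 548 and 800 CPM in P1-ww714, 477, 543 and 465 CPM in the heterozygote and 323, 421 and 451 CPM in B73. Its list held 6 matched genes, of which 2 were tested, and Nrt1.1 (both identifiers) had 0 counts in every library. The epidermal wax gene gl1 had 190, 208 and 269 CPM in P1-ww714, 220, 207 and 164 CPM in the heterozygote and 183, 173 and 141 CPM in B73. Both epidermis genes, gl1 and gl15, together ran from 201 to 283 CPM in P1-ww714, from 173 to 229 CPM in the heterozygote and from 150 to 196 CPM in B73. Cell division and histone genes, 16 in number, stood at -1.92 in heterozygote replicate 1 and between -0.24 and 0.28 in the 8 other libraries, while the enzyme genes stood at 0.24 in that library. With edgeR and with DESeq2, none of these heat shock (15), nitrate (2), epidermis (2) or cell division genes (16) passed in any comparison. Of all tested genes, 0.776% passed with edgeR and 311 of 22544 with DESeq2 in P1-ww714 against B73. These were 0.111% and 73 in the heterozygote against B73, and 0% and 27 in P1-ww714 against the heterozygote. In P1-ww714 against B73 an unadjusted edgeR p under 0.05 was found for 6, 1, 1 and 0 genes of these lists, beside 7.13% of all tested genes. Of the heat shock genes, 14 of 15 log2 fold changes in that comparison lay above 0 with a median of 0.71, beside 49.5% and a median of -0.0022 over all tested genes. The 15 values come from the same libraries and are not independent of each other. The parts of heat response, nitrate supply, epidermis content and dividing cells in the enzyme values were not tested, and in RNA of seedlings fewer cells of a type and less RNA per cell cannot be told apart.

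**Figure D4:**
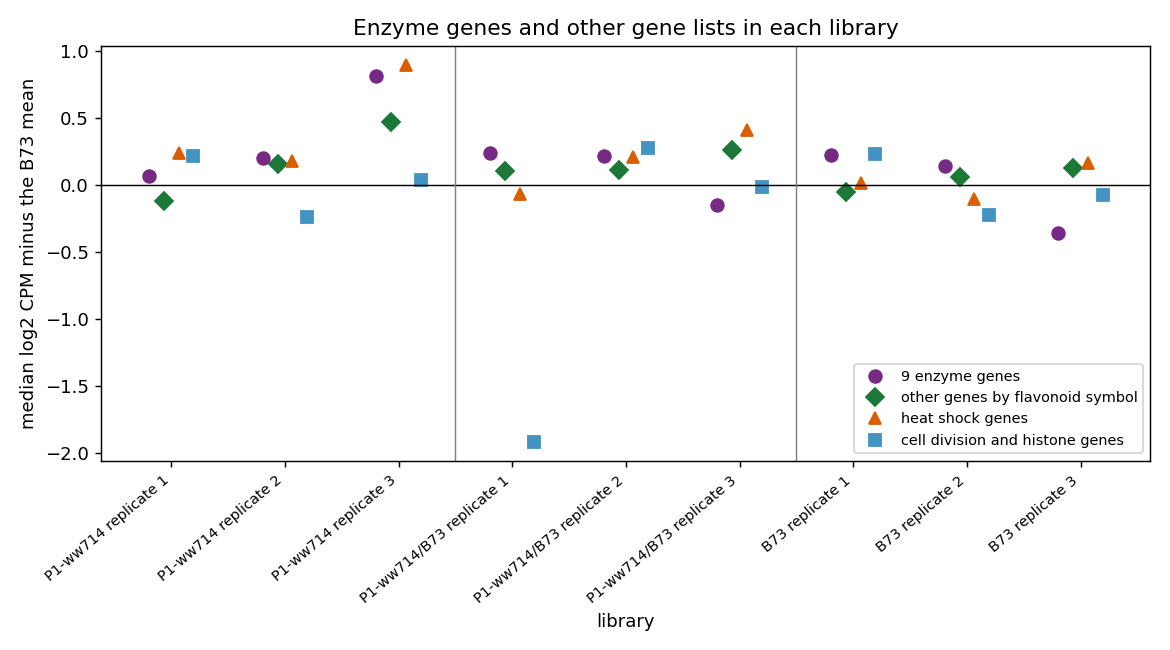
Median over the genes of a list of log2 CPM minus its mean over the B73 libraries, in each library, for the 9 enzyme genes, 5 other genes matched by flavonoid symbols, 15 heat shock genes and 16 cell division and histone genes. P1-ww714 replicate 3 is high for the enzyme genes (0.81), the heat shock genes (0.90) and the 5 genes matched by symbol (0.47), while the cell division genes are far below the rest in heterozygote replicate 1 alone.

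Other genes of the pathway were matched by symbol. The entry enzyme phenylalanine ammonia lyase was represented by PAL1 (GRMZM2G074604), with 661, 489 and 678 CPM in P1-ww714, 649, 584 and 447 CPM in the heterozygote and 725, 475 and 419 CPM in B73. Its log2 fold changes were 0.17 in P1-ww714 against B73 and 0.05 in the heterozygote against B73, and neither passed. Of 5 other genes matched by flavonoid symbols, among them MRP4, which is known for seed phytate and not for pigment, 0 passed the edgeR test in any of the 3 comparisons (lowest adjusted p = 0.719). With DESeq2 0 passed, and 0 had an unadjusted p under 0.05. In P1-ww714 against B73, 0.776% of all tested genes passed with edgeR and 311 of 22544 with DESeq2. An unadjusted edgeR p under 0.05 was found for 7.13% of them. There 4 of the 5 values lay above 0 with a median of 0.25, beside 49.5% and a median of -0.0022 over all tested genes. These 5 values also share their libraries and are not independent. Of the 5 matched genes, sm2 (GRMZM2G180283), a rhamnosyltransferase of maysin, a flavone of silks, had 76.7, 135 and 188 CPM in P1-ww714, 110, 129 and 121 CPM in the heterozygote and 74.5, 101 and 105 CPM in B73. The rhamnose synthase gene sm1 (GRMZM2G031311) averaged 57.0 ± 11.8 CPM in P1-ww714, 59.1 ± 13.3 CPM in the heterozygote and 48.0 ± 10.3 CPM in B73 (SD, n = 3 each). The transporter gene MRP4 (GRMZM5G820122) averaged 129 ± 8.49 CPM in P1-ww714, 126 ± 10.9 CPM in the heterozygote and 123 ± 9.74 CPM in B73. The a1 relative a4 (GRMZM2G176576) had a log2 fold change of 0.43 in P1-ww714 against B73 (95% interval -0.01 to 0.88). The 1 member of that list below 0 was dfr1 (GRMZM2G004683), named for dihydroflavonol reductase, at -0.13 with 5.87 ± 1.15 CPM in P1-ww714 and 6.40 ± 1.45 CPM in B73 (SD, n = 3 each).

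Of the regulators, the MYB gene p1 (GRMZM2G084799) had 4, 4 and 11 counts in P1-ww714, 2, 1 and 1 in the heterozygote and 1, 0 and 1 in B73, and c1 (GRMZM2G005066) had 4, 5 and 16 counts in P1-ww714, 2, 4 and 5 in the heterozygote and 2, 3 and 0 in B73, too few for a test of either. The bHLH gene r1 (GRMZM5G822829) averaged 16.0 ± 4.43 CPM in P1-ww714, 12.3 ± 2.89 CPM in the heterozygote and 12.0 ± 2.18 CPM in B73 (SD, n = 3 each). The 4 tested regulator identifiers were r1, pl1 and 2 named pac1. Of these, 0 passed with edgeR or DESeq2 or had an unadjusted p under 0.05 in any comparison. Over all tested genes, 0.776% passed with edgeR and 7.13% had an unadjusted p under 0.05 in P1-ww714 against B73. These shares were 0.111% and 2.59% in the heterozygote against B73, and 0% and 3.02% in P1-ww714 against the heterozygote. DESeq2 called 311, 73 and 27 of the 22544 tested genes in these 3 comparisons, in the same order. The lowest adjusted edgeR p of the 4 was 0.837, for r1 in P1-ww714 against B73.

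On chromosome 1, neither chi1 nor bz2 lies near p1 in the order of the reference assembly. The distance from p1 was 1729 tested genes for chi1 and 1161 for bz2, counted only over genes placed in that assembly. The 100 placed tested genes after p1 had a median log2 fold change of 0.93 in P1-ww714 against B73. The 100 around chi1, 50 on each side, had 0.03, and the 100 around bz2, taken likewise, had 0.01. The other 7 enzyme genes lie on chromosomes 2, 3, 4, 5 and 9.

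The genes most like the enzyme genes in pattern were found by Pearson's r with their mean centred log2 CPM over the 9 libraries, among 5398 named genes. These were pco106324 (GRMZM2G101818, r = 0.97), bx9 (GRMZM2G161335, 0.97), IDP158 (GRMZM2G175076, 0.96), gl4a (GRMZM2G003501, 0.96) and pco131712 (GRMZM2G130800, 0.96). Without P1-ww714 replicate 3, r was between 0.94 and 0.96 for these 5. Of them, bx9 encodes a glucosyltransferase of benzoxazinoid defence compounds and had 144 ± 28.2 CPM in P1-ww714, 128 ± 25.1 CPM in the heterozygote and 123 ± 27.8 CPM in B73 (SD, n = 3 each). The gene gl4a, named after the wax gene gl4, had 109 ± 28.9 CPM in P1-ww714, 95.1 ± 23.2 CPM in the heterozygote and 83.7 ± 17.2 CPM in B73, and none of the 5 passed the edgeR test in any comparison. In P1-ww714 against B73, 1 of the 5, pco131712, had an unadjusted edgeR p under 0.05 (0.0432), as 7.13% of all tested genes had. The edgeR test passed 0.776% of all tested genes there. It passed 0.111% in the heterozygote against B73 and 0% in P1-ww714 against the heterozygote.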

How the data were processed

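The authors deposited gene counts that were not normalised, with a column for each library, and per the submitters' processing notes TopHat and HTSeq were used. Tool versions, genome build, annotation and strand setting were not given in the sources used here, and 9 columns were mapped to samples by their names. Gene names and order were read from a RefSeq table (Zm-B73-REFERENCE-NAM-5.0), which matched 18775 of 39656 identifiers, all 9 enzyme genes among them. No coordinates are printed since builds may differ, and levels are not compared between genes because transcript lengths were not used here. The whp1 share is a share of counts, not of transcripts.

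Counts were analysed with edgeR 4.0.16 in R 4.3.3. filterByExpr (minimum count 10) kept 22544 genes. TMM scaling and the quasi-likelihood test were fitted on all 9 libraries, with Benjamini-Hochberg adjustment over all tested genes at 0.05. Each standard error is the log2 fold divided by the root of F, and gives the 95% interval. The procedure was tested on simulated counts. Log2 CPM used a prior count of 2. The settings changed in turn were DESeq2 1.42.0 in place of edgeR, RLE size factors, no filter on low counts, a replicate block, only the groups compared, a threshold of 0.01 and leaving out libraries. All enzyme genes were named. For the other lists, the rule was to name genes past the threshold or among the 3 of their list with the highest level. It was not followed throughout, as mdh6, me3, ssu1, rca1, hsp70-4, HSP90-2 and his2a1, among others, met it and were not named above. The names pl1, PDK1 and Pep1 were given outside the rule. The genes c1, p1, a4, dfr1, gl15, rth3 and r1, with the marker genes at 0, were added after their values were seen. Of these, gl15, rth3 and r1 also met the rule by their level. The members, lists and tests were chosen with earlier results of these data known. No replicate pair agreed within sampling noise (chi-square per gene of 6.35 or more).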

Additional observations from a re-analysis of the deposited data

How the results depend on the processing

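The count of enzyme genes past the threshold was 0 in each of the 3 comparisons under every alternative run, and without single libraries it ran from 0 to 0. Of 405 recomputed log2 fold changes, 378 kept their direction and 27 did not. With only the groups compared, a1 stood at -0.000183 in P1-ww714 against B73. An alternative chosen after seeing the data left out both heterozygote replicate 1 and P1-ww714 replicate 3, the latter picked for its high enzyme values. There whp1 stood at -0.038 and a1 at -0.082 in P1-ww714 against B73, chi1 at -0.13 and fht1 at -0.042 in the heterozygote against B73, and c2 at -5.7e-05, whp1 at -0.27 and bz1 at -0.058 in P1-ww714 against the heterozygote.

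Without single libraries, values in P1-ww714 against B73 ran from -0.036 to 0.64 for whp1, -0.16 to 0.11 for a1, -0.0021 to 0.29 for fht1 and -0.032 to 0.90 for bz2. In the heterozygote against B73 they ran from -0.13 to 0.43 for chi1, -0.12 to 0.17 for fht1 and -0.51 to 0.43 for bz2. In P1-ww714 against the heterozygote they ran from -0.084 to 0.28 for c2, -0.26 to 0.42 for whp1, -0.16 to 0.37 for chi1, -0.052 to 0.55 for pr1 and -0.074 to 0.37 for bz1. The cause was not tested. The whp1 share differed by -0.90 to 0.96 percentage points, and its alternative per coding length was not run because no coding length was at hand.

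With the replicate block, the log2 fold change of pr1 in P1-ww714 against B73 was 0.69 and 0 of 9 genes passed in each comparison. Same-numbered libraries of different genotypes correlated in their deviations at -0.12 to 0.50, and 5 of 9 libraries correlated best with their own number, so the numbers are not taken as pairs. Over all genes 243 genes were called in P1-ww714 against B73 with the block, against 175 without it. Other counts over all genes that differed by more than 1.5 times from the 175 and 25 calls were 311 and 73 with DESeq2, 7 in the heterozygote against B73 at a threshold of 0.01 and 0 there with only the groups compared. The threshold of 0.01 gave 117 calls in P1-ww714 against B73. In P1-ww714 against the heterozygote, DESeq2 called 27 genes against 0 with edgeR, none of them an enzyme gene.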
